A study of Mus musculus with 21 samples.

Results

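The class 3 semaphorins are secreted guidance proteins, and the genes described here are *Sema3a* to *Sema3g*, the neuropilin receptors *Nrp1* and *Nrp2*, and the plexin *Plxnd1*. They are 10 of the 27179 genes counted in podocyte fractions of mouse kidney. The set was chosen because *Sema3e* was much lower in middle-aged saline-treated mice than in young mice. The values of saline against young mice, and every value of *Sema3e*, are therefore given as a description with no test. Counts of genes that passed an edgeR adjusted p of 0.05 between saline and young mice, markers and lists included, are a description too.

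Most class 3 semaphorins bind a neuropilin, which has no signalling domain of its own and passes the signal on through a plexin. *Sema3e* is the exception, since it can bind plexin-D1 directly. In the kidney, podocytes secrete semaphorins and vascular endothelial growth factor A toward the glomerular endothelium, and neuropilin-1 is also a coreceptor for that growth factor. Semaphorin signals in podocytes act on the actin cytoskeleton of the foot processes.

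All mice were male wildtype C57BL/6J, and podocytes were pulled from the digested kidney cortex of single mice with an antibody to nephrin and magnetic beads. The 6 young mice were 4 months old and untreated. The 7 saline and 8 MCC950 mice were 19.5 months old and had been injected intraperitoneally for 6 weeks from 18 months of age, with saline or with 10 mg/kg MCC950, a small-molecule inhibitor of the NLRP3 inflammasome. Young mice received no saline, so age and injection cannot be told apart in the comparisons with young mice. Each library is 1 mouse.

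Total counts per library ranged from 27375870 to 36827823 in young, from 45772937 to 84876399 in saline and from 35440472 to 58247271 in MCC950 mice. Mitochondrial genes took a median of 71.1%, 68.6% and 57.5% of these counts. Outside them, every middle-aged library held more counts than any young library (5804891 to 13269290 in young mice, 14362648 or more in the others). The fraction was not pure. The 15 podocyte markers, none of them at 0 in every library, summed to between 868.5 and 1812 CPM (counts scaled to library size, by TMM) in young, 362.9 and 642.7 in saline and 472.9 and 740.1 in MCC950 mice. The 8 proximal tubule markers summed to between 1240 and 3951, 1122 and 2739, and 1735 and 4214 CPM, and the 9 endothelial markers to between 455.0 and 850.9, 268.9 and 393.6, and 243.9 and 437.8 CPM. In such bulk samples, fewer cells of a type and less RNA per cell cannot be told apart.

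On the GRCm38 mouse assembly (RefSeq genes), 4 of the 7 ligand genes lie on chromosome 5: *Sema3d* (Entrez Gene 108151, chr5:12383161-12588953), *Sema3a* (20346, chr5:13124822-13603485), *Sema3e* (20349, chr5:14025276-14256689) and *Sema3c* (20348, chr5:17574816-17730268), all on the plus strand. *Sema3b* (20347, chr9:107597674-107609241) and *Sema3f* (20350, chr9:107681499-107710475) are close to each other on the minus strand of chromosome 9. *Sema3g* (218877) is at chr14:31217873-31230352 on the plus strand. The receptor genes are *Nrp1* (18186, chr8:128358591-128505476, plus strand), *Nrp2* (18187, chr1:62703317-62818692, plus strand) and *Plxnd1* (67784, chr6:115954811-115995339, minus strand). Counts are summed over all exons of a gene, untranslated regions included, and the exons of these genes overlap no other gene except for 0.818% of the exon bases of *Nrp1*.

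The promoters of *Sema3e* and *Sema3g* are shown because these ligand genes had the lowest log2 fold changes of the set between saline and young mice. The stretches run from 250 bases before to 30 bases after the start of transcription (RefSeq, GRCm38.p6, plus strand), 5′ to 3′, with matches to the E-box letters CANNTG in capitals. The *Sema3e* stretch is chr5:14025026-14025305 and the *Sema3g* stretch is chr14:31217623-31217902.
Sema3e: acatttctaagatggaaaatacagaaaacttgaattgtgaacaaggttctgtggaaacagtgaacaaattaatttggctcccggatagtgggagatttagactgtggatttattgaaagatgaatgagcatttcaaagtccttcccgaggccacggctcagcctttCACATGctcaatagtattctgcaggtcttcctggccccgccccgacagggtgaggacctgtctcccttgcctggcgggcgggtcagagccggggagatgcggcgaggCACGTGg
Sema3g: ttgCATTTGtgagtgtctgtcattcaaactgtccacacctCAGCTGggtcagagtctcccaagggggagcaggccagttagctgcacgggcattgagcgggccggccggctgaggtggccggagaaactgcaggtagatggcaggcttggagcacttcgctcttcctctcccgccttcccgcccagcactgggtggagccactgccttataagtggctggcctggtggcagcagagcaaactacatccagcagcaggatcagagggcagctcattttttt
Each stretch holds 2 E-box matches. The letters are common, found in 72.3% of the 32851 RefSeq promoter windows of 300 bases, on either strand. The GC box GGGCGG, on either strand, was matched at 2 places in the *Sema3e* window and at 1 in the *Sema3g* window, and in 35.7% of all windows. A match is a description of the letters and not a binding site. GC content was 50.7% for *Sema3e* and 58.7% for *Sema3g*, against a median of 52.7% over all windows. Of the 10 genes, 8 had a RefSeq promoter window.

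*Sema3e*, the ligand of plexin-D1, was the gene by which the set was chosen. Its level in the 6 young mice was lowest at 2.92, had a median of 5.76 and was highest at 8.56 CPM (mean 5.75 ± 2.60, SD). In the 7 saline mice the lowest, median and highest values were 0.231, 0.565 and 1.20 CPM (0.633 ± 0.342). In the 8 MCC950 mice they were 0.795, 1.34 and 2.42 CPM (1.41 ± 0.570). No saline or MCC950 mouse reached the lowest young mouse, and 5 of the 8 MCC950 mice were above the highest saline mouse, so these groups overlapped in part. The difference was -3.21 ± 0.37 (log2 fold change ± SE) between saline and young mice, which is 9.25-fold lower. It was 1.17 ± 0.34, or 2.25-fold higher, between MCC950 and saline mice, and -2.04 ± 0.33 between MCC950 and young mice. The read counts behind these levels were 52 to 265 in young, 19 to 62 in saline and at least 43 in MCC950 libraries. With all libraries thinned to the same number of counts the differences were -3.27, 1.18 and -2.10.

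**Figure D1:**
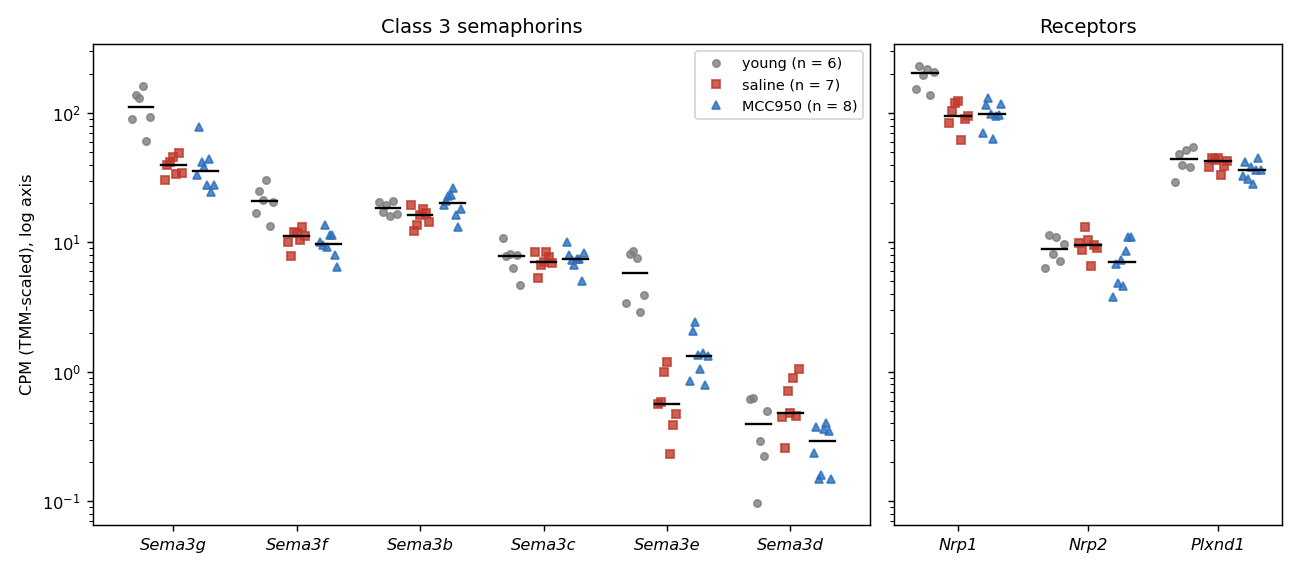
Levels of the genes in each library, in TMM-scaled CPM on a log axis, for young (grey circles, n = 6), saline (red squares, n = 7) and MCC950 mice (blue triangles, n = 8); horizontal lines are medians. *Sema3a*, at or near 0 in every library, is left out. The saline values of *Sema3e*, *Sema3g*, *Sema3f* and *Nrp1* all lie below the young values, and the MCC950 median of *Sema3e* (1.34 CPM) lies between those of saline (0.565) and young mice (5.76).

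*Sema3g*, a semaphorin that podocytes are known to express and that binds neuropilin-2, was the most abundant ligand. Its lowest, median and highest levels were 60.7, 111.9 and 160.6 CPM in young mice, 30.2, 39.4 and 49.4 CPM in saline mice and 24.6, 35.9 and 77.8 CPM in MCC950 mice. Every saline mouse was below every young mouse. The MCC950 mice were more widely spread than the saline mice, with 1 of 8 above and 3 of 8 below the whole saline range. The log2 fold change was -1.51 ± 0.24 for saline against young mice. MCC950 against saline mice gave 0.01 ± 0.22 (95% interval -0.42 to 0.44, edgeR adjusted p = 0.987), and MCC950 against young mice gave -1.51 ± 0.23 (edgeR adjusted p = 5.27e-05), with 7 of 8 MCC950 mice below the lowest young mouse. MCC950 replicate 2 had the highest middle-aged level, and without it the MCC950 against saline difference was -0.21.

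*Sema3f*, which signals mainly through neuropilin-2, ranged from 13.4 to 30.6 CPM in young mice with a median of 20.9. It ranged from 7.87 to 13.2 CPM in saline mice (median 11.2) and from 6.46 to 13.7 CPM in MCC950 mice (median 9.78). Both middle-aged groups sat low, and only 1 of the 15 middle-aged mice, an MCC950 mouse, reached the lowest young mouse. The log2 fold change was -0.96 ± 0.17 for saline against young mice and -1.09 ± 0.17 for MCC950 against young mice (edgeR adjusted p = 5.17e-05). Between MCC950 and saline mice it was -0.13 ± 0.16 (95% interval -0.44 to 0.18, edgeR adjusted p = 0.613).

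Of the 8 genes tested between MCC950 and saline mice, which leave out *Sema3e*, 1 passed. That gene was *Sema3d*, a low-level ligand known for its action on endothelial cells. Its lowest, median and highest levels were 0.0968, 0.397 and 0.630 CPM in young, 0.256, 0.483 and 1.06 CPM in saline and 0.148, 0.293 and 0.403 CPM in MCC950 mice. Of the 8 MCC950 mice, 4 were below the lowest saline mouse, and the groups overlapped. The log2 fold change was -1.16 ± 0.35 (edgeR adjusted p = 0.0281) for MCC950 against saline mice, and -0.55 ± 0.39 (edgeR adjusted p = 0.278) against young mice. For saline against young mice it was 0.61 ± 0.39. These levels rest on 3 to 25, 14 to 73 and 7 to 28 counts a library. The call was lost without saline replicate 3, 5 or 7 or MCC950 replicate 1, 3 or 4 (edgeR adjusted p between 0.0511 and 0.0673, log2 fold change between -1.13 and -0.99). It was also lost with libraries thinned to equal depth (-1.09 ± 0.53, edgeR adjusted p = 0.202), and when the score of the podocyte (-0.93 ± 0.41, 0.108) or proximal tubule markers (-1.34 ± 0.43, 0.0665) entered the fit as a covariate. The direction was the same in all of these fits, and in the last 3 the SE was larger than the 0.35 of the fit without them.

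*Sema3b* and *Sema3c*, ligands that bind either neuropilin, passed the test in neither comparison of MCC950 mice. The lowest, median and highest levels of *Sema3b* were 16.1, 18.3 and 20.8 CPM in young, 12.2, 16.4 and 19.3 CPM in saline and 13.2, 20.3 and 26.5 CPM in MCC950 mice. Of the MCC950 mice, 5 of 8 were above the highest saline mouse. The difference of 0.34 ± 0.13 between MCC950 and saline mice did not pass the test (edgeR adjusted p = 0.065). It passed without saline replicate 1, MCC950 replicate 6 or MCC950 replicate 7 (edgeR adjusted p = 0.0393, 0.0413 and 0.0146), with DESeq2 (0.0488) and with the podocyte score in the fit (0.0474). With the proximal tubule score in the fit, whose markers were higher in MCC950 mice, the *Sema3b* difference was 0.05 ± 0.13 (edgeR adjusted p = 0.858). *Sema3b* gave 0.12 ± 0.13 for MCC950 against young mice (edgeR adjusted p = 0.481) and -0.22 ± 0.14 for saline against young mice. *Sema3c* had medians of 7.91, 7.12 and 7.47 CPM in young, saline and MCC950 mice, with log2 fold changes of 0.06 ± 0.15 for MCC950 against saline mice (edgeR adjusted p = 0.819) and -0.02 ± 0.16 against young mice (edgeR adjusted p = 0.928).

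*Sema3a*, the repulsive guidance cue that podocytes are also known to make, was barely detected. It had 0 counts in 6 of 6 young, 4 of 7 saline and 7 of 8 MCC950 libraries, and the highest count in any library was 4. A count of 0 allows up to 3 counts (counting error only). That is 0.0747 to 0.168 CPM in the young libraries and 0.0388 to 0.0707 CPM in the middle-aged libraries at 0. *Sema3a* did not pass the filter on low counts, so 9 of the 10 genes entered the fit.

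*Nrp1*, the receptor shared by semaphorins and vascular endothelial growth factor A, had the highest level of the receptors. Its lowest, median and highest levels were 139, 202 and 232 CPM in young mice, 62.3, 94.5 and 124 CPM in saline mice and 63.4, 97.7 and 130 CPM in MCC950 mice. Neither middle-aged group overlapped the young mice, and the middle-aged groups overlapped almost wholly. The log2 fold change was -0.98 ± 0.17 for saline against young and -0.96 ± 0.17 for MCC950 against young mice (edgeR adjusted p = 0.000193). Between MCC950 and saline mice it was 0.02 ± 0.16 (95% interval -0.30 to 0.34, edgeR adjusted p = 0.947).

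*Nrp2*, the other neuropilin, had medians of 8.86, 9.52 and 7.07 CPM in young, saline and MCC950 mice, and 3 of 8 MCC950 mice were below the lowest saline mouse. Its log2 fold changes were -0.40 ± 0.21 for MCC950 against saline mice (edgeR adjusted p = 0.19) and -0.30 ± 0.22 against young mice (edgeR adjusted p = 0.295). *Plxnd1*, the plexin that *Sema3e* binds, had medians of 43.9, 42.8 and 36.1 CPM. The ranges of its levels overlapped in every comparison, from 29.5 to 55.0 CPM in young, 32.9 to 45.2 in saline and 28.5 to 45.1 in MCC950 mice. For *Plxnd1* the log2 fold change was -0.10 ± 0.13 between saline and young mice, -0.18 ± 0.12 between MCC950 and saline mice (edgeR adjusted p = 0.321) and -0.27 ± 0.12 between MCC950 and young mice (edgeR adjusted p = 0.0862). The last of these passed without young replicate 1 (0.0142) or MCC950 replicate 7 (0.0426).

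**Figure D2:**
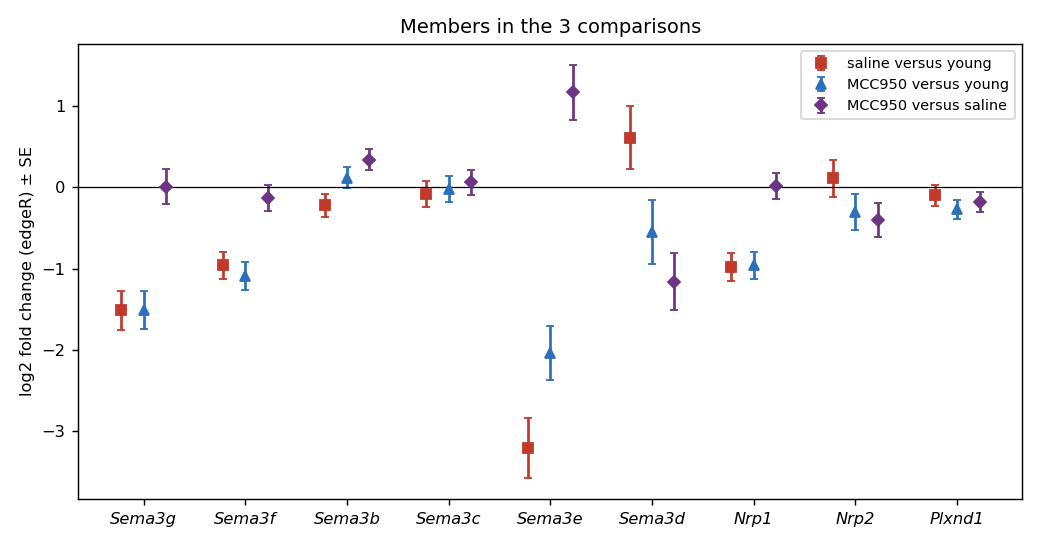
Log2 fold changes of the genes (points) with their SE (bars) from 1 edgeR fit of the 21 libraries, for saline against young (red squares), MCC950 against young (blue triangles) and MCC950 against saline mice (purple diamonds). *Sema3g*, *Sema3f* and *Nrp1* lie near or below -1 against young mice and near 0 between the middle-aged groups (0.01, -0.13 and 0.02), whereas *Sema3e* lies at 1.17 and *Sema3d* at -1.16 between them.

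Counted over the set, 4 of the 9 genes that passed the filter were past an adjusted p of 0.05 between saline and young mice, *Sema3e*, *Sema3f*, *Sema3g* and *Nrp1*, all of them lower and without overlap between the groups. Of all 16377 genes tested in that comparison, 24.6% passed, 12.4% passed as lower, and 9.37% did not overlap. The set was chosen on this comparison, so nothing is read from these counts. Between MCC950 and saline mice, 1 of the 8 genes other than *Sema3e* passed, as lower, where 16.8% of all genes passed, 4.86% as lower, and 1.74% did not overlap. None of the 9 genes was without overlap there. Between MCC950 and young mice, 3 of these 8 genes passed, all lower, where 38.3% of all genes passed, 16.5% as lower, and 7.94% did not overlap. *Nrp1* was the 1 gene of these 8 without overlap. Without *Sema3e*, the median log2 fold change of the 8 genes was -0.16, -0.06 and -0.42 in the 3 comparisons, in the order given here. Over all genes it was 0.02, 0.00 and 0.08. These medians are a description and were not tested. The comparisons share libraries, since saline and young mice each enter 2 of them.

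Divided by exon length, the levels were set in order between genes. The length covers all annotated exons of a gene, and reads were aligned without splitting over introns. A bias that differs between genes was not corrected, so this order and the ligand shares given next are approximate. In young mice *Sema3g* (24.7 ± 8.10 CPM per kb, SD) and *Nrp1* (19.5 ± 3.77) stood above the rest, and their ranges overlapped. *Plxnd1* (5.997 ± 1.303), *Sema3f* (4.10 ± 1.16) and *Sema3b* (3.87 ± 0.434) followed, each overlapping the next, then *Sema3c* (1.07 ± 0.289), *Nrp2* (0.753 ± 0.173) and *Sema3e* (0.619 ± 0.280), which again overlapped in turn. *Sema3d* (0.0459 ± 0.0259) was lower without overlap. In saline mice *Nrp1* (9.91 ± 2.19) and *Sema3g* (8.65 ± 1.52) still overlapped at the top, and *Sema3e* (0.0682 ± 0.0369) overlapped *Sema3d* (0.0715 ± 0.0329). In MCC950 mice *Nrp1* (10.1 ± 2.35) and *Sema3g* (8.70 ± 3.74) led, and *Sema3e* (0.152 ± 0.0613) was above *Sema3d* (0.0318 ± 0.0129) without overlap.

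The 7 ligands summed to 34.4 ± 9.10 CPM per kb in young, 15.2 ± 1.74 in saline and 16.1 ± 4.22 in MCC950 mice. *Sema3g* made up 70.7 ± 5.44% of that sum in young mice (61.5 to 76.3%), 56.6 ± 5.65% in saline mice (47.8 to 63.8%) and 52.7 ± 8.25% in MCC950 mice (40.8 to 69.3%). The share of *Sema3b* was 12.19 ± 4.59% in young, 21.96 ± 4.06% in saline and 26.96 ± 5.82% in MCC950 mice. *Sema3e* held 1.74 ± 0.444%, 0.445 ± 0.218% and 0.934 ± 0.256%. Its share in saline mice (0.171 to 0.760%) lay wholly below that in young mice (1.24 to 2.37%), and the MCC950 range (0.613 to 1.44%) overlapped both.

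**Figure D3:**
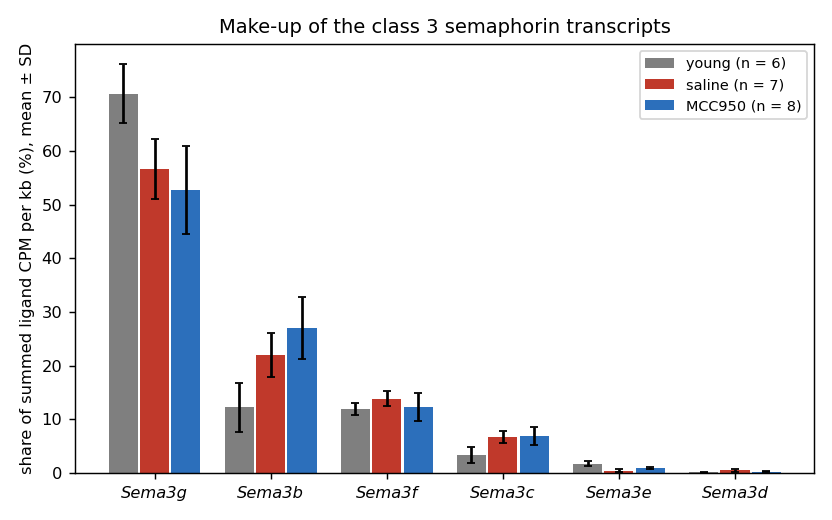
Share of each ligand in the summed level of the 7 class 3 semaphorins per exon length (percent, mean with SD as bars) in young (grey, n = 6), saline (red, n = 7) and MCC950 mice (blue, n = 8). *Sema3g* makes up 70.7% of the sum in young mice and 56.6% and 52.7% in saline and MCC950 mice, *Sema3b* makes up 12.19%, 21.96% and 26.96%, and *Sema3a*, near 0, is left out.

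Markers of several cell types also differed between the groups. The shares of all genes that passed were 24.6% between saline and young, 16.8% between MCC950 and saline, and 38.3% between MCC950 and young mice. Of the 15 podocyte markers, 14 were lower in saline than in young mice, 14 were lower in MCC950 than in young mice, and 5 were higher in MCC950 than in saline mice (edgeR adjusted p under 0.05). Their mean log2 CPM, the podocyte score, was 4.88 to 5.92 in young, 3.14 to 4.23 in saline and 4.00 to 4.74 in MCC950 mice, so neither middle-aged group overlapped the young mice. Endothelial markers were lower in saline than in young mice in 8 of 9 cases, 3 of 9 were lower in MCC950 than in saline mice, and 9 of 9 in MCC950 than in young mice. Proximal tubule markers were higher in MCC950 than in saline mice, and in MCC950 than in young mice, in 5 of 8 cases each. Of 6 mesangial and smooth muscle markers, 5 were lower in saline and 6 in MCC950 than in young mice, and of 6 collecting duct markers, 4 and 6 were lower. In saline against young mice, 3 of 9 macrophage and myeloid, 3 of 6 T cell and 2 of 5 B and plasma cell markers were higher. Against young mice, *Sema3e*, *Sema3f*, *Sema3g* and *Nrp1* were lower alongside most of the podocyte, endothelial, mesangial and smooth muscle, and collecting duct markers. The other 5 genes that passed the filter on low counts were not past the threshold. The median log2 fold change of the podocyte markers between MCC950 and saline mice was 0.36, beside 1.17 for *Sema3e*, 0.01 for *Sema3g*, 0.02 for *Nrp1* and -0.13 for *Sema3f*. The part of these cell types in the results was not tested beyond the covariate fits given here.

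With the podocyte score as a covariate, the *Sema3e* difference was -0.42 ± 0.35 between saline and young mice, 0.41 ± 0.18 between MCC950 and saline mice and -0.01 ± 0.39 between MCC950 and young mice. With the proximal tubule score in its place, the *Sema3e* differences were -3.35 ± 0.35, 1.75 ± 0.44 and -1.60 ± 0.37. In the fit with the podocyte score *Sema3f*, *Sema3g* and *Nrp1* did not pass between MCC950 and young mice (-0.45, -0.37 and -0.09, with edgeR adjusted p = 0.432, 0.531 and 0.869). *Sema3g* was then lower in MCC950 than in saline mice, by -0.50 ± 0.17 (edgeR adjusted p = 0.0351), where it had stood at 0.01 without the covariate. Since the podocyte scores of young and middle-aged mice do not overlap, the score and age cannot be told apart in this fit. Taken as a difference on the log2 scale, *Sema3e* stood at -3.07 ± 0.24 relative to the podocyte score in young mice, -4.56 ± 0.49 in saline mice and -3.86 ± 0.31 in MCC950 mice. Saline mice (-5.22 to -3.92) and MCC950 mice (-4.41 to -3.42) both lay wholly below young mice (-3.33 to -2.79). The MCC950 and saline ranges overlapped. *Sema3g* relative to the same score was 1.27 ± 0.18, 1.44 ± 0.27 and 0.91 ± 0.33, and *Nrp1* was 2.08 ± 0.26, 2.73 ± 0.14 and 2.28 ± 0.23. *Sema3f* relative to the podocyte score was -1.11 ± 0.22, -0.39 ± 0.34 and -1.01 ± 0.35. Relative to the endothelial score *Nrp1* was 1.68 ± 0.06, 1.59 ± 0.26 and 1.86 ± 0.30, and *Sema3f* was -1.51 ± 0.15, -1.53 ± 0.14 and -1.43 ± 0.28. *Sema3g* relative to the endothelial score was 0.87 ± 0.26, 0.30 ± 0.17 and 0.49 ± 0.38, and *Sema3e* was -3.47 ± 0.48, -5.71 ± 0.66 and -4.28 ± 0.35.

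**Figure D4:**
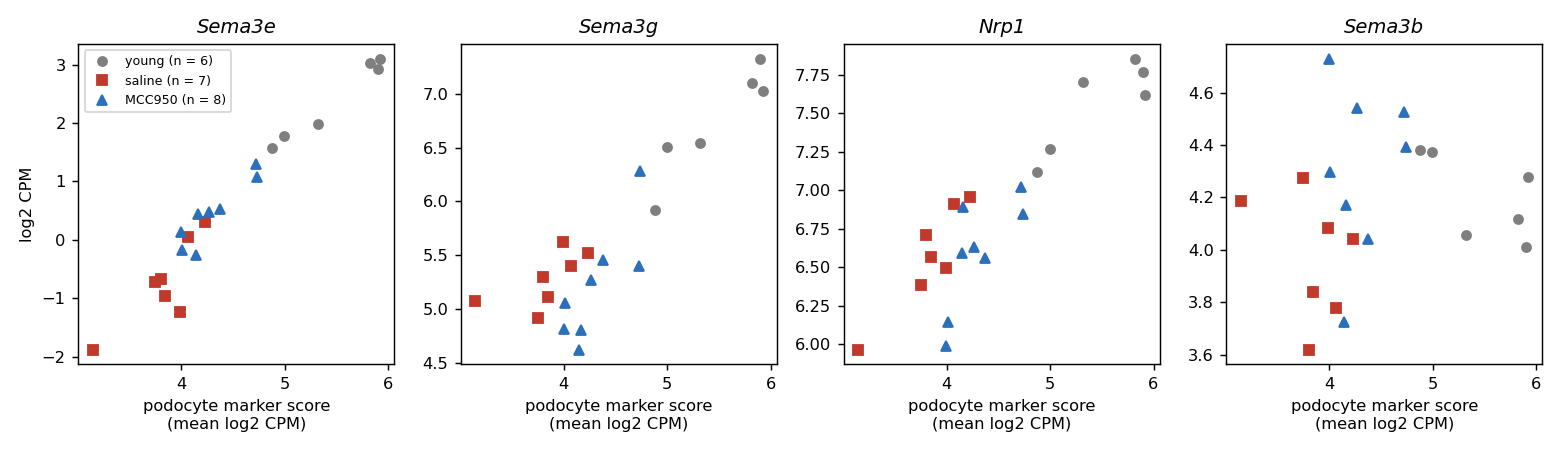
Log2 CPM of *Sema3e*, *Sema3g*, *Nrp1* and *Sema3b* (vertical axes) against the podocyte marker score (mean log2 CPM of 15 markers, horizontal axes) in each library of young (grey circles, n = 6), saline (red squares, n = 7) and MCC950 mice (blue triangles, n = 8). *Sema3e* goes up with the score within and between groups, *Nrp1* goes up with it from mouse to mouse but differs by only 0.02 (log2) between the middle-aged groups, *Sema3b* shows no such rise, and the scores of young mice (4.88 to 5.92) lie above those of the middle-aged mice.

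Within groups, the genes whose levels went up and down with *Sema3e* from mouse to mouse were found by the Pearson correlation of deviations from the group mean over the 21 libraries, among 12263 genes. The 5 most alike were *Srgap1* (r = 0.90), *Tns3* (0.90), *Synpo* (0.89), *Daam2* (0.88) and *Arhgap28* (0.88). *Synpo* encodes synaptopodin, the actin-associated protein of podocyte foot processes, and was one of the podocyte markers. The podocyte score itself gave r = 0.90 with *Sema3e*. Among the set, *Nrp1* (0.81) and *Sema3g* (0.67) were the most alike to *Sema3e*, followed by *Sema3f* (0.47), while *Sema3b* gave -0.05 and *Sema3c* -0.11. For *Sema3g* the most alike were *Acpp* (0.90), *Il1rap* (0.90), *Rhoj* (0.88), *Clec14a* (0.88) and *Ntrk3* (0.88), and its correlation with the podocyte score was 0.79. *Clec14a* and *Rhoj* are known for their expression in endothelium, but the correlation of *Sema3g* with the endothelial score was not computed. All points share the library, its depth and the purity of its fraction, so these values describe the libraries.

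The rest of the pathway was followed in lists of genes around the set. Of all genes tested, 24.6% passed between saline and young, 16.8% between MCC950 and saline, and 38.3% between MCC950 and young mice. The counts in the lists are given beside these shares, and a count near them is not read as a result about the list. Of 8 other plexins, 0 passed between MCC950 and saline mice in edgeR, with 0 at an unadjusted p under 0.05 and 0 in DESeq2, and 3 passed as lower between MCC950 and young mice. These included *Plxnb1*, a receptor of class 4 semaphorins (28.5 against 44.1 CPM, log2 fold change -0.63 ± 0.14, edgeR adjusted p = 0.0016), and *Plxna2*, a signalling partner of neuropilins (10.3 against 15.6 CPM, -0.60 ± 0.13, edgeR adjusted p = 0.00136). Between saline and young mice 2 of the 8 passed, both lower.

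Of 13 semaphorins of other classes, 3 were higher and 3 lower in saline than in young mice, and 2 were higher and 3 lower in MCC950 than in young mice. Between MCC950 and saline mice 1 passed, *Sema7a*, a membrane-anchored semaphorin, at 7.09 CPM in MCC950 and 10.6 CPM in saline mice (-0.59 ± 0.15, edgeR adjusted p = 0.0149). *Sema5a*, a transmembrane semaphorin, was at 24.2 CPM in MCC950 and 56.1 CPM in young mice (-1.21 ± 0.15, edgeR adjusted p = 6.35e-06). *Sema4f*, among those counted as higher, was at 0.290 against 0.0960 CPM in the same comparison (1.59 ± 0.58). Its young level lies within the 0.0747 to 0.168 CPM that a count of 0 allows in young libraries. The *Sema4f* difference is therefore given as a description only.

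Coreceptors and competing ligands of neuropilins held 11 genes, of which 5 were lower in saline than in young mice, 8 were lower and 1 higher in MCC950 than in young mice, and 2 were higher and 1 lower in MCC950 than in saline mice. *Vegfa*, the growth factor that podocytes supply to the endothelium and that competes for neuropilin-1, averaged 193.4 CPM in young, 108.2 CPM in saline and 149.2 CPM in MCC950 mice. It was higher in MCC950 than in saline mice (0.46 ± 0.14, edgeR adjusted p = 0.0262) and lower than in young mice (-0.37 ± 0.14, edgeR adjusted p = 0.0416). *L1cam*, an adhesion molecule that joins neuropilin-1 in the *Sema3a* receptor, was lower in MCC950 than in saline mice (26.9 against 37.0 CPM, -0.46 ± 0.12, edgeR adjusted p = 0.0166). The growth factor receptors *Kdr* and *Flt1*, both endothelial, were lower in MCC950 than in young mice by -1.28 ± 0.20 and -1.23 ± 0.14 (edgeR adjusted p = 6.27e-05 and 4.36e-06), and stood at -0.02 ± 0.19 and -0.18 ± 0.14 between MCC950 and saline mice (edgeR adjusted p = 0.951 and 0.407).

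Of 25 effectors that act downstream of plexins and neuropilins, 23 passed the filter on low counts. Between MCC950 and saline mice 0 passed in edgeR, with 4 at an unadjusted p under 0.05 and 1 in DESeq2. Between saline and young mice 2 were higher and 4 lower, and between MCC950 and young mice 1 was higher and 4 lower. *Dpysl3*, of the family of collapsin response mediators, gave -1.30 ± 0.24 (edgeR adjusted p = 0.000281) and *Mical3*, an actin-oxidising enzyme, -0.66 ± 0.18 (edgeR adjusted p = 0.00786) in the last comparison. Of 5 proteases that cut class 3 semaphorins, *Pcsk6*, a proprotein convertase, was at 8.63 CPM in MCC950 and 15.2 CPM in saline mice (-0.82 ± 0.21, edgeR adjusted p = 0.0143), and was the 1 that passed. *Pcsk6* and *Adamts1* were the 2 that passed between MCC950 and young mice, both lower, with *Adamts1* at 67.1 against 106.5 CPM (-0.67 ± 0.19, edgeR adjusted p = 0.00948). Between saline and young mice 2 of the 5 were lower.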

How the data were processed

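Podocyte fractions of 21 mice were sequenced, 1 library per mouse. Per the labels and the study's methods, the authors trimmed reads with Trim Galore, aligned them to mm10 (GRCm38) with Bowtie2, which does not split reads over introns, and counted them per gene with featureCounts. The deposited values are raw read counts, not normalized. The annotation release, strand setting and handling of multi-mapping reads are not given in the sources used here. A normalized table of the authors was not used. Genes are listed by Entrez Gene number, and RefSeq gave names to 25275 and GENCODE to 18, with 1886 left unnamed. No library duplicated another of its own group (lowest chi-square per degree of freedom within a group, 17). Libraries of different groups were not compared in this way.

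Counts were fitted with edgeR 4.0.16 in R 4.3.3 (TMM, filterByExpr by group, quasi-likelihood F test, 3 groups in 1 fit, 16377 genes, Benjamini-Hochberg over all of them, call at adjusted p under 0.05). CPM are TMM-scaled. SE is the log2 fold change over the square root of F, and 95% intervals are normal ones from it. Scores are mean log2 CPM with a prior count of 2. On simulated data of 16239 genes for MCC950 against saline mice, 92 of 100 genes changed 2-fold and 100 of 100 changed 4-fold were called, with 11 unchanged genes. The changed genes were drawn from those with a mean above 1 CPM. These shares do not cover *Sema3d*, whose mean was below that in every group. Alternatives were DESeq2 1.42.0, RLE size factors, no low-count filter, only the groups compared, the replicate number as a block, mitochondrial genes left out, thinning to 5804891 counts, podocyte or proximal tubule score as a covariate, the study's rule (unadjusted p under 0.05 and over 2-fold) and each library left out.

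The genes and lists were chosen with earlier results of these data known. Named are the 10 genes, up to 4 genes per pathway list (the 2 largest changes among those called in each MCC950 comparison) and the 5 genes most like *Sema3e* and *Sema3g* with a mean of at least 1 log2 CPM.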

Additional observations from a re-analysis of the deposited data

How the results depend on the processing

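The 9 genes kept their values within the spread between libraries, or their direction and side of the threshold, under most of the 10 settings and 21 left-out libraries. In the comparison of saline with young mice, the 4 genes past the threshold became 0 with the podocyte score as a covariate and 2 by the study's rule. In the same covariate fit *Sema3g* turned to 0.14 and *Nrp1* to 0.23, and *Sema3c* moved to -0.44, *Sema3d* to -0.15, *Sema3e* to -0.42, *Sema3f* to -0.07, *Nrp2* to 0.87 and *Plxnd1* to 0.44. Between MCC950 and saline mice, the 1 call, *Sema3d*, was joined by *Sema3b* with DESeq2, which gave 2 calls. With the podocyte score the 2 calls were *Sema3b* and *Sema3g*, and *Sema3d* was lost. There were 0 calls with thinning or the proximal tubule score. With libraries left out, the number of calls in this comparison ranged from 0 to 2. Differences near 0 changed sign there: *Sema3c* was -0.16 with thinning and -0.32 with the proximal tubule score, *Sema3g* was -0.02 with DESeq2, RLE factors or only the groups compared, -0.01 with thinning and -0.50 with the podocyte score, *Nrp1* was 0.00 with thinning and -0.32 with the podocyte score, and with the proximal tubule score *Nrp2* was 0.07 and *Plxnd1* 0.15. With libraries left out, *Sema3c* ranged from -0.02 to 0.13, *Sema3g* from -0.21 to 0.08 and *Nrp1* from -0.06 to 0.09. Between MCC950 and young mice, the 3 calls became 0 with the podocyte score, where *Sema3b* was -0.04, *Nrp2* 0.27 and *Plxnd1* 0.12. With the proximal tubule score *Sema3b* was -0.11 and *Nrp2* 0.07, and with libraries left out *Sema3c* ranged from -0.17 to 0.11. The cause of these changes was not tested.

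Same-numbered libraries correlated between -0.144 and 0.335 (MCC950 and saline), -0.0128 and 0.401 (MCC950 and young) and -0.0614 and 0.347 (saline and young). In the same order, 4 of 14, 3 of 12 and 3 of 12 libraries correlated best with their own number. The labels number the mice but state no pairing, and whether the numbers mark a shared structure was not tested. With the replicate number as a block, some SE between saline and young mice were smaller. That of *Nrp1* was 0.08 against 0.17 without the block, and that of *Sema3e* 0.22 against 0.37. The SE of *Sema3d* was larger, 0.42 against 0.39. With the replicate block, 3 genes passed between MCC950 and saline mice (*Sema3b*, 0.35, *Sema3d*, and *Nrp2*, -0.58, edgeR adjusted p = 0.0267) and 5 between MCC950 and young mice (with *Nrp2*, -0.51, and *Plxnd1*, -0.30). *Sema3g* was -0.01 and *Nrp1* -0.03 against saline mice, and *Sema3c* 0.01 against young mice.

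Over all genes, 4034, 2753 and 6277 were called between saline and young, MCC950 and saline, and MCC950 and young mice. Thinning gave 2402, 1369 and 4089, and the study's rule 1140, 444 and 1371. The podocyte score gave 6 in the first and 122 in the last comparison, and the proximal tubule score 969 in the second. Leaving out libraries gave 1523 to 3295 in the second, with 1523 without saline replicate 4 and 1745 without saline replicate 3. The low counts of *Sema3d* and *Sema3a* limit what these libraries can show for them.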
